A study of Mus musculus with 6 samples.

Results

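The cytosolic ribosomal protein genes were examined as a set of 36 listed genes, 22 of the large and 14 of the small ribosomal subunit, out of 22180 genes measured in dorsal root ganglia (DRG) of mice lacking HDAC4 in nociceptors. The list was applied by gene symbol. Each gene was read through probe sets annotated with that symbol alone and, where it had several, through the one with the highest mean over all arrays. By this rule 33 of the 36 genes were measured, 20 of the large and 13 of the small subunit. *Rpl10* and *Rps2* were covered only by probe sets that carry several symbols, and *Rpl18* matched no probe set used here.

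RNA from lumbar DRG of naive adult mice, aged 2 mo per the methods, was hybridized to 6 arrays. The labels give the strain as C57Bl/6, and the methods describe lines backcrossed to C57Bl/6J that were nearly but not fully congenic. The HDAC4 Nav1.8 cKO group (n = 3) carried floxed *Hdac4* alleles together with Cre recombinase driven from the Nav1.8 locus, which is active mostly in nociceptors. The wild-type group (n = 3) consisted of HDAC4 fl/fl littermates, so that both groups carried the floxed alleles. Satellite glia, Schwann cells, fibroblasts, blood cells and neurons without Nav1.8 keep HDAC4 in this model and contribute to the RNA. The labels do not say which arrays came from separate animals. The sex-linked genes given below differ among the cKO arrays, which therefore came from more than 1 animal, whereas for the other arrays the spread behind the p-values may be technical.

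The ribosome joins a large and a small subunit, each built from ribosomal RNA and many small basic proteins. Ribosomal protein mRNAs are among the most abundant in any cell. Most begin with a short run of pyrimidines, the 5′ terminal oligopyrimidine (TOP) motif, through which mTOR and LARP1 control their translation together. In sensory neurons, ribosomes also supply axons, and local protein synthesis there is known to take part in nociceptor sensitization. Ribosomal protein genes have many processed copies elsewhere in the genome, which matters for any array probe that reads them.

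A RefSeq promoter window (GRCm38.p6) was at hand for 28 of the 36 genes. A run of at least 8 C or T bases touched the 10 bases either side of the annotated start in 12 of these 28 genes (42.9%) and in 13.5% of all 27025 genes with a window. Windows of 30 bases, 15 before and 15 from the start on, are printed 5′ to 3′ on the gene's own strand, with the longest such run in capitals. The first 5 hold a long run.
Rpl35: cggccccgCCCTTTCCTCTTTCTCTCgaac
Rpl15: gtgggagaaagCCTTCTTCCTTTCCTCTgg
Rpl14: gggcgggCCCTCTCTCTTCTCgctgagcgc
Rps6: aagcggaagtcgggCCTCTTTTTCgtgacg
Rps27: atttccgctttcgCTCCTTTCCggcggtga
These lie at chr2:39005117-39005146 (minus strand) for *Rpl35*, chr14:18270972-18271001 (minus) for *Rpl15*, chr9:120571502-120571531 (plus) for *Rpl14*, chr4:86857353-86857382 (minus) for *Rps6* and chr3:90213634-90213663 (minus) for *Rps27*. Their runs are 18, 17, 14, 10 and 9 bases long. The next 3 genes, which the results below turn on, have a shorter run at the annotated start.
Rpl37: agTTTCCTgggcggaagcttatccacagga
Rplp0: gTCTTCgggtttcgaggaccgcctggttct
Rps15: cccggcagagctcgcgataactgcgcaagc
*Rpl37* lies at chr15:5116598-5116627 (plus) and *Rplp0* at chr5:115559452-115559481 (plus), with runs of 6 and 5 bases. *Rps15* lies at chr10:80292416-80292445 (plus), where the longest run of 3 bases is left in lower case. The window follows the annotated start, and a start annotated a few bases away moves the run out of it.

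Over the full promoter window, from 250 bases before to 50 after the start, the ETS core CCGGAAGT was found on either strand in 6 of the 28 genes (21.4%) and in 4.0% of all genes. TATAAA was found in 2 of 28 (7.14%) and in 14.2% of all genes, and AAGATGGC, a form of the YY1 motif, in 1 of 28 (3.57%) and in 2.88% of all genes. The ribosomal protein promoters thus held the ETS core at a higher share than all promoters and TATAAA at a lower one. These matches are a description of letters and not of factor binding.

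The cKO arrays were not all of one sex by their sex-linked genes, and this bears on every comparison below. *Xist*, the RNA that coats the inactive X chromosome in females, was 11.74, 6.67 and 5.95 (log2) on cKO arrays 1, 2 and 3, against 11.60, 11.71 and 11.60 on the wild-type arrays. *Uty*, a Y-linked gene, was 4.59, 9.26 and 9.01 on the cKO arrays and 4.50, 4.59 and 4.31 on the wild-type arrays. cKO arrays 2 and 3 therefore differed from the other 4 arrays in these genes, whereas the methods describe groups matched for sex. The array medians lay between 6.43 and 6.50, which the joint normalization sets. *Hdac4* itself was 9.17, 9.14 and 9.21 in cKO and 9.22, 9.49 and 9.19 in wild-type DRG (log2 fold change -0.13, SE 0.10, adjusted p = 0.776). The annotation does not tell which exons the probe set covers, so it does not check the deletion. The nociceptor channel gene *Scn10a* was 12.30, 12.31 and 12.39 in cKO and 12.21, 12.49 and 12.20 in wild-type DRG, with overlapping groups.

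Across the 33 genes, no ribosomal protein gene passed the test between cKO and wild-type DRG at an adjusted p of 0.05, with adjusted p between 0.640 and 0.981. None of all 22180 genes passed either (0.0%). The median log2 fold change was 0.07, with 23 of 33 genes (69.7%) above zero, beside a median of 0.00 and 50.7% over all genes. The 95% confidence interval lay within 0.5 log2 units either side of zero for 28 of the 33 genes. The median standard error was 0.09, as it was over all genes, and the number of arrays limits this precision. In a bulk tissue, fewer cells of a type and less RNA per cell cannot be told apart.

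**Figure D1:**
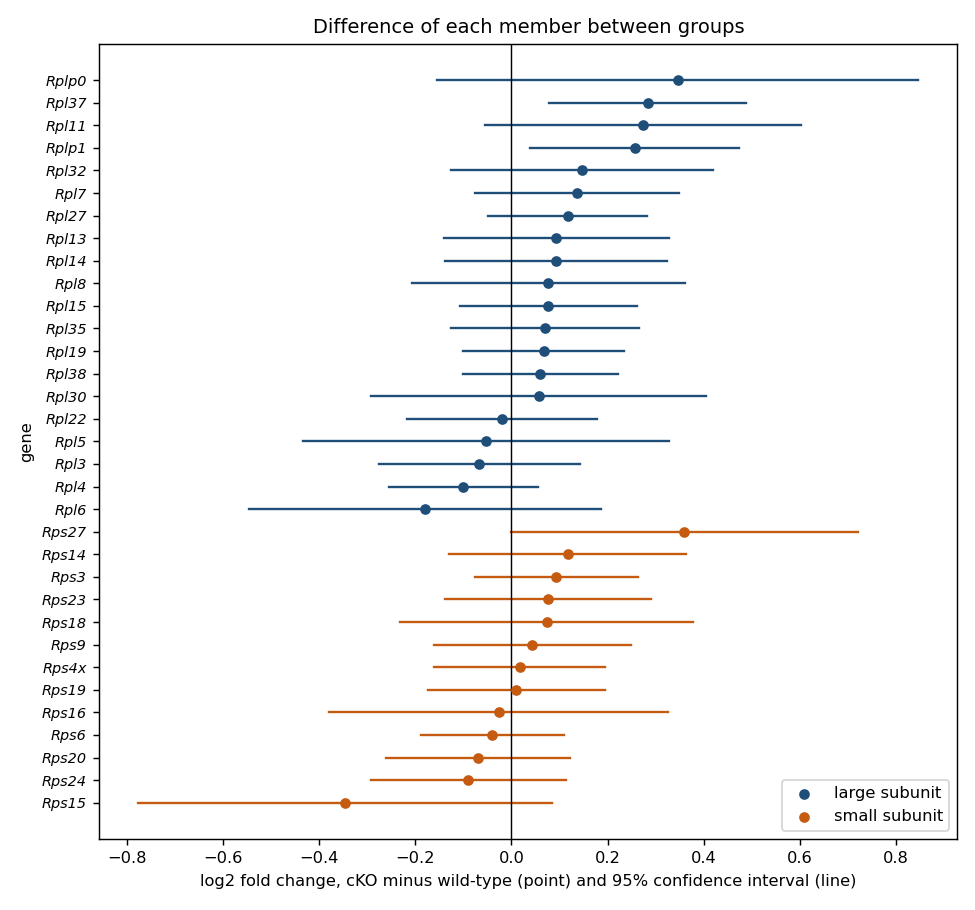
Log2 fold change, cKO minus wild-type, of each measured ribosomal protein gene with its 95% confidence interval (n = 3 arrays per group), large and small subunit apart. Most points lie near zero, from -0.35 for Rps15 to 0.36 for Rps27, and 28 of 33 intervals lie within 0.5 of zero.

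At an unadjusted p of 0.05, 2 of the 33 genes (6.06%) were higher in cKO DRG, beside 2.67% of all genes. With sex as a covariate neither was under that level (0 of 33, beside 3.88% of all genes). No ribosomal protein gene was lower at that level, beside 2.8% of all genes. All cKO arrays lay above all wild-type arrays for 3 genes (9.09%), beside 6.3% of all genes, and below them for 2 genes, beside 7.4%. An exact permutation test of 3 against 3 arrays cannot go below 0.1, which is the value of each of these 5 genes.

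Among the large-subunit genes, 15 of 20 fold changes were above zero, with a median of 0.08 and a range from -0.18 to 0.35. *Rpl37*, a zinc-binding protein of the large subunit, was 6.49, 6.62 and 6.69 in cKO and 6.39, 6.23 and 6.33 in wild-type DRG. The groups did not overlap, and the log2 fold change was 0.28 (SE 0.09, adjusted p = 0.640), a 1.22-fold difference. With sex as a covariate it was 0.17 (adjusted p = 0.686). All 3 wild-type values of *Rpl37* were below the median of the table, 6.47.

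*Rplp1* and *Rplp0* encode proteins of the ribosomal stalk, which recruits elongation factors. *Rplp1* was 11.23, 11.47 and 11.49 in cKO and 11.13, 11.17 and 11.12 in wild-type DRG. Its groups did not overlap (log2 fold change 0.26, SE 0.09, adjusted p = 0.647), with cKO arrays 2 and 3 farther from the wild-type arrays than cKO array 1. With sex as a covariate the fold change of *Rplp1* was 0.09 (adjusted p = 0.825). *Rplp0* was 9.26, 9.92 and 10.08 in cKO and 9.47, 9.33 and 9.42 in wild-type DRG. For *Rplp0*, cKO array 1 lay below every wild-type array while cKO arrays 2 and 3 lay above them, and the fold change of 0.35 had a 95% confidence interval from -0.15 to 0.85 (adjusted p = 0.725). The SD of *Rplp0* was 0.43 in cKO and 0.07 in wild-type DRG, and the cKO value was the highest within-group SD among the 33 genes. Its fold change was 0.59 without cKO array 1 and 0.18 without cKO array 3, and -0.15 with sex as a covariate.

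*Rpl11* and *Rpl5* encode proteins that bind the smallest ribosomal RNA and, outside the ribosome, the p53 regulator MDM2. *Rpl11* was 6.95, 6.58 and 6.86 in cKO and 6.33, 6.71 and 6.53 in wild-type DRG (log2 fold change 0.27, SE 0.14, adjusted p = 0.694). *Rpl5* was 6.79, 6.65 and 6.47 in cKO and 6.96, 6.71 and 6.40 in wild-type DRG, with a fold change of -0.05. The groups overlapped in both genes, and the fold change of *Rpl11* was 0.18 without wild-type array 1 and 0.43 with sex as a covariate.

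*Rpl3* and *Rpl4* encode core proteins of the large subunit, near the catalytic center and the exit tunnel. *Rpl4* was 12.23, 12.18 and 12.19 in cKO and 12.29, 12.34 and 12.27 in wild-type DRG. All cKO arrays were lower than all wild-type arrays, by a log2 difference of -0.10 that did not pass the test (adjusted p = 0.743). *Rpl3* was 9.87, 9.75 and 9.69 in cKO and 9.94, 9.83 and 9.74 in wild-type DRG, with overlapping groups and a fold change of -0.07. *Rpl6* had the most negative fold change of the large subunit, -0.18 (SE 0.15, adjusted p = 0.792), with 6.55, 5.97 and 6.23 in cKO and 6.39, 6.35 and 6.55 in wild-type DRG. The value of *Rpl6* was -0.33 without cKO array 1, -0.04 without cKO array 2 and 0.12 with sex as a covariate.

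*Rpl27*, in which human mutations cause Diamond-Blackfan anemia, was 10.31, 10.42 and 10.41 in cKO and 10.29, 10.27 and 10.23 in wild-type DRG. Its groups did not overlap, with a fold change of 0.12 (SE 0.07, adjusted p = 0.722). *Rpl32* was 10.34, 10.66 and 10.72 in cKO and 10.42, 10.48 and 10.38 in wild-type DRG, where cKO array 1 again lay below and cKO arrays 2 and 3 above the wild-type arrays. *Rpl7*, an RNA-binding protein of the large subunit, was 9.56, 9.69 and 9.78 in cKO and 9.50, 9.48 and 9.64 in wild-type DRG, a fold change of 0.14 with overlapping groups.

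*Rpl19*, which forms a bridge to the small subunit, was 12.01, 12.11 and 12.15 in cKO and 12.02, 12.03 and 12.02 in wild-type DRG. The wild-type arrays of *Rpl19* differed by 0.01 at most, and cKO arrays 2 and 3 stood above them while cKO array 1 stood below. *Rpl8*, of the catalytic core, was 10.14, 10.48 and 10.49 in cKO and 10.23, 10.24 and 10.41 in wild-type DRG, with the same order of the cKO arrays. *Rpl38*, needed in mouse embryos for translation of Hox mRNAs, was 11.26, 11.29 and 11.32 in cKO and 11.28, 11.23 and 11.18 in wild-type DRG. *Rpl13* and *Rpl14* had a fold change of 0.09 each. *Rpl15*, *Rpl35* and *Rpl30* lay between 0.06 and 0.08. *Rpl22*, a protein that mouse cells largely do without outside lymphocyte development, was 7.44, 7.34 and 7.38 in cKO and 7.51, 7.42 and 7.29 in wild-type DRG, a fold change of -0.02.

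Among the small-subunit genes, 8 of 13 fold changes were above zero, with a median of 0.02 and a range from -0.35 to 0.36. The difference between the subunits was not tested. *Rps27* had the highest value, with 7.24, 7.34 and 7.20 in cKO and 7.22, 6.84 and 6.64 in wild-type DRG (log2 fold change 0.36, SE 0.15, adjusted p = 0.669). Wild-type array 1 of *Rps27* lay within the cKO values, and the SD was 0.07 in cKO and 0.29 in wild-type DRG. Without wild-type array 3 the fold change of *Rps27* was 0.23. *Rps15*, in the head of the small subunit, had the lowest value, with 5.79, 5.79 and 6.33 in cKO and 6.38, 6.48 and 6.09 in wild-type DRG (log2 fold change -0.35, SE 0.18, adjusted p = 0.700). Its groups overlapped through cKO array 3 and wild-type array 3. The fold change of *Rps15* was -0.53 without cKO array 3 and likewise -0.53 with sex as a covariate. It was -0.26 without cKO array 1 and likewise without cKO array 2.

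*Rps6*, the target of the S6 kinases downstream of mTOR, was at 13.20 on each cKO array and 13.25, 13.24 and 13.23 on the wild-type arrays. The SD of *Rps6* was 0.00 in cKO and 0.01 in wild-type DRG, its groups did not overlap, and the log2 difference was -0.04 (SE 0.06, adjusted p = 0.885). *Rps3*, which lines the mRNA entry channel, was 10.08, 10.12 and 10.18 in cKO and 9.97, 10.05 and 10.08 in wild-type DRG, with a fold change of 0.09. *Rps24*, in which human mutations also cause Diamond-Blackfan anemia, was 8.46, 8.35 and 8.59 in cKO and 8.60, 8.51 and 8.56 in wild-type DRG (log2 fold change -0.09, SE 0.08, adjusted p = 0.810), with cKO array 3 inside the wild-type range. Its value was -0.15 without cKO array 3 and -0.03 without cKO array 2.

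*Rps14* had a fold change of 0.12 and *Rps23*, of the decoding center, 0.08. *Rps18* was at 0.07, *Rps9* at 0.04, *Rps19* at 0.01, *Rps16* at -0.03 and *Rps20* at -0.07. *Rps4x*, an X-linked gene that escapes X inactivation in humans, was 10.38, 10.32 and 10.30 in cKO and 10.31, 10.40 and 10.24 in wild-type DRG. The cKO arrays of *Rps4x* with low and high *Xist* both lay within the wild-type range, which reached from 10.24 to 10.40.

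**Figure D2:**
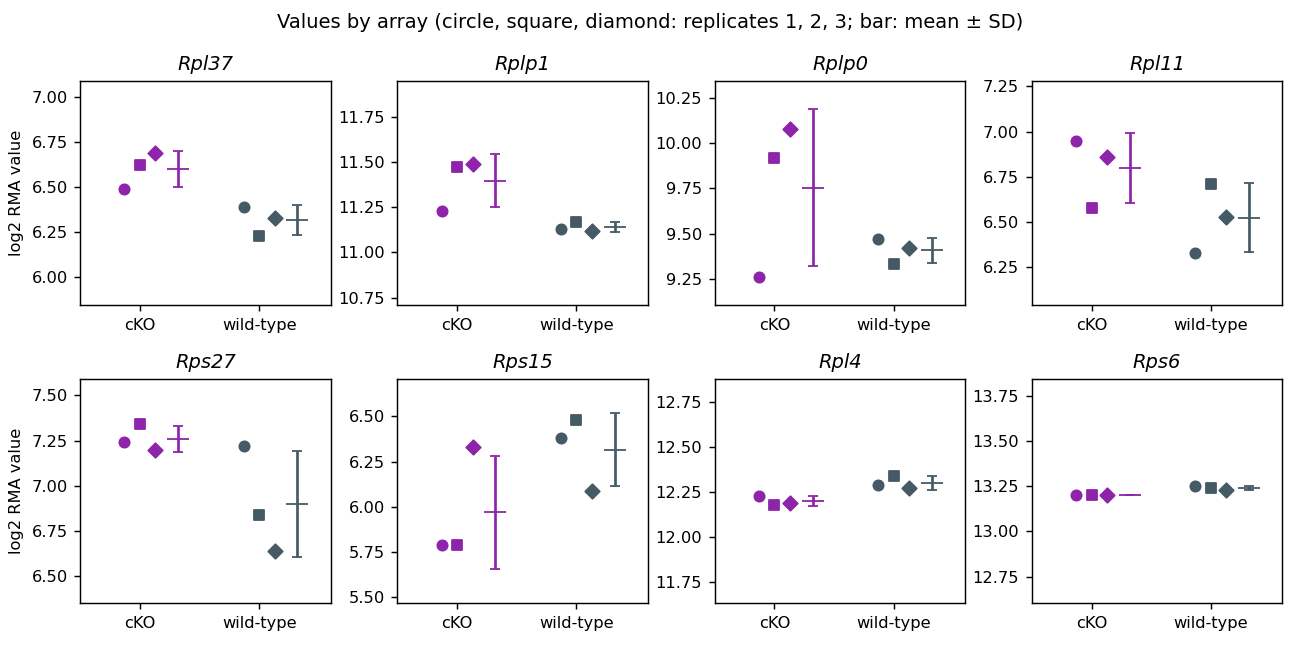
Log2 RMA values of Rpl37, Rplp1, Rplp0, Rpl11, Rps27, Rps15, Rpl4 and Rps6, one point per array, cKO left of wild-type. Bars give the group mean ± SD (n = 3). The genes were picked, and the log2 differences of Rpl4 and Rps6 are only -0.10 and -0.04. The axes are centered on each gene and span the same range. In Rplp0, cKO array 1 lies below and cKO arrays 2 and 3 lie above the wild-type arrays.

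The 3 cKO arrays did not stand alike. Each array was described by its deviation from the gene's own mean over the 6 arrays. The median deviation over the 33 genes was -0.04, 0.04 and 0.09 on cKO arrays 1, 2 and 3, against 0.01, -0.02 and -0.06 on wild-type arrays 1, 2 and 3. On these arrays 10, 21 and 23 of the 33 genes lay above their own mean in cKO, against 19, 14 and 8 in wild-type DRG. Over all genes the same shares were 47.4%, 49.0% and 53.1% in cKO and 50.8%, 48.6% and 47.9% in wild-type DRG.

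cKO array 3 held the highest value for 15 of the 33 genes, cKO array 2 for 6 and cKO array 1 for 2, while wild-type arrays 1, 2 and 3 did so for 6, 3 and 0 genes. Over all genes, cKO array 3 was highest for 22.8% and wild-type array 3 for 15.2%. cKO arrays 2 and 3 both exceeded every wild-type array in 14 of the 33 genes, beside 16.7% of all genes. They both exceeded cKO array 1 in 18 genes, beside 37.3% of all genes. cKO array 1 lay within the wild-type range in 16 of the 33 genes, a share near the 44.8% of all genes.

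The large subunit had median deviations of -0.04, 0.07 and 0.13 on the cKO arrays and -0.01, -0.04 and -0.07 on the wild-type arrays. The small subunit had -0.05, 0.04 and 0.08 on the cKO arrays and 0.04, 0.01 and -0.06 on the wild-type arrays. cKO arrays 2 and 3 are those with high *Uty* and low *Xist*. Their part in the pattern was not tested apart from the fit with sex as a covariate, where the median of the 33 genes was -0.01 and that of all genes -0.01. In that fit the difference between the groups comes from cKO array 1 alone, the only cKO array that shares its sex-linked signals with wild-type arrays.

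Markers of the cell types in the ganglion were set beside this pattern. Satellite glia and Schwann cell markers, 7 of 10 measured, had median deviations of -0.05, 0.01 and 0.12 on the cKO arrays and 0.03, -0.04 and -0.04 on the wild-type arrays, also highest on cKO array 3. Sensory neuron markers, 12 of 14 measured, had 0.00, 0.03 and 0.07 on the cKO arrays and -0.03, -0.04 and -0.02 on the wild-type arrays, in the same order among the cKO arrays. Fibroblast markers ran the other way, with 5 of 6 fold changes below zero (median -0.14), as did leukocyte markers, with 5 of 7 below zero (median -0.17, 7 of 8 measured). The part of these cell types in the ribosomal protein values was not tested.

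**Figure D3:**
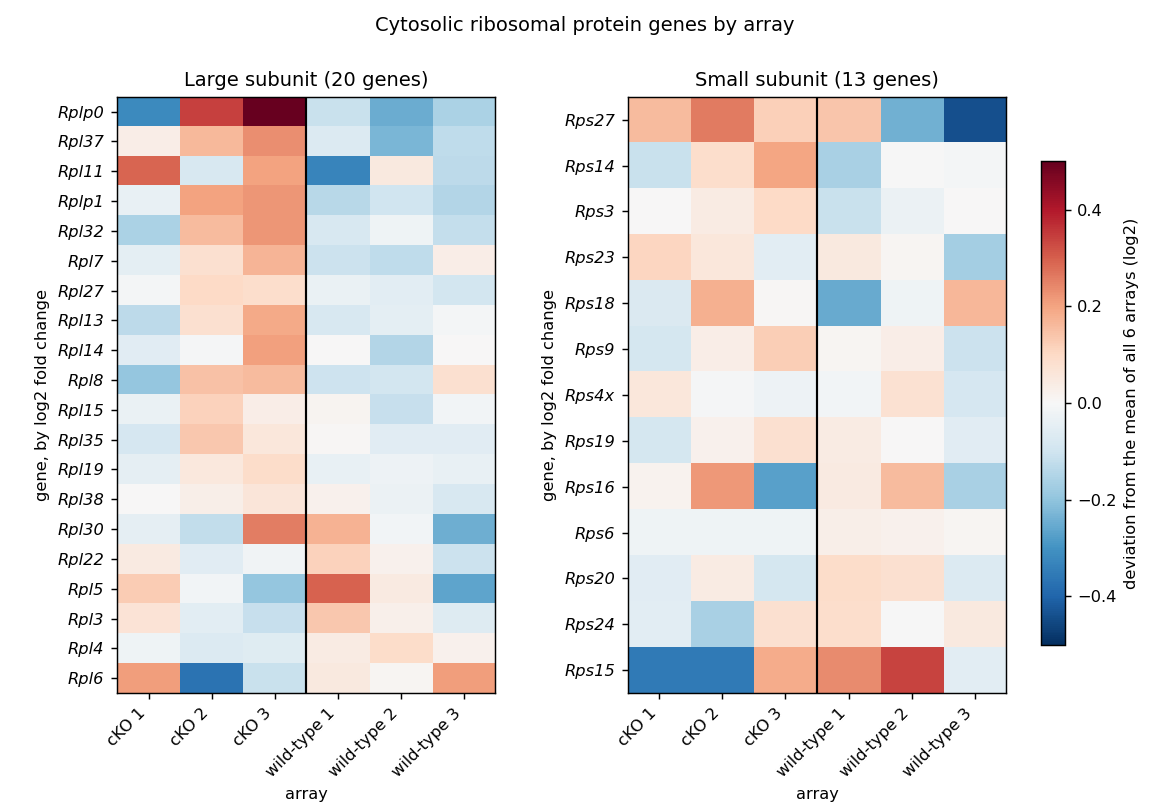
Deviation (log2) of each measured ribosomal protein gene from its own mean over the 6 arrays, cKO arrays left of wild-type arrays. The large-subunit panel is left of the small-subunit panel, with the color scale clipped at 0.5 either side. The median deviation runs from -0.06 on wild-type array 3 to 0.09 on cKO array 3.

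Leaving out cKO array 1, the 2 remaining cKO arrays lay above all wild-type arrays for 14 genes (42.4% of the 33, beside 16.7% of all genes), and the median fold change was 0.11. Without cKO array 2 or cKO array 3 the median was 0.04. The large-subunit median was 0.14 without cKO array 1 and 0.04 without cKO array 3. No ribosomal protein gene passed an adjusted p of 0.05 in either fit.

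The 26 measured genes of a further list of 43 ribosomal protein genes had a median fold change of 0.07, with 17 above zero and none at an unadjusted p of 0.05. Their median deviations were -0.05, 0.05 and 0.13 on the cKO arrays and 0.03, -0.03 and -0.04 on the wild-type arrays. In that list cKO array 3 was highest for 15 genes and wild-type array 3 for 0. *Rps29* was 5.64, 5.96 and 6.16 in cKO and 5.71, 5.60 and 5.59 in wild-type DRG (log2 fold change 0.29, SE 0.14, adjusted p = 0.689).

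Of 8 tissue-restricted or duplicated ribosomal protein paralogs, 7 were measured and 4 had a fold change above zero. *Rpl3l*, the paralog of *Rpl3* in striated muscle, was 6.24, 6.46 and 6.22 in cKO and 5.83, 5.95 and 6.03 in wild-type DRG (log2 fold change 0.37, SE 0.10, adjusted p = 0.635). Skeletal muscle markers were set beside it. All 14 were measured and none passed an adjusted p of 0.05. Of the 14, 13 had a fold change above zero and the groups overlapped in 9, with a median of 0.98 and a mean level of 8.04, 8.60 and 7.91 on the cKO arrays and 6.95, 6.51 and 8.04 on the wild-type arrays. By this mean, wild-type array 3 was level with cKO array 1, above cKO array 3 and below cKO array 2. In 5 of the markers all cKO arrays lay above all wild-type arrays. At an unadjusted p of 0.05, 6 of the markers were higher in cKO DRG and 0 lower. Their part in the *Rpl3l* value was not tested.

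The lists of the rest of the translation machinery had medians near zero. Of 8 elongation factor genes, 5 were above zero (median 0.01). Of 28 initiation factor genes 24 were measured, 9 above and 15 below zero (median -0.01), and none of either list had an unadjusted p under 0.05. All cKO arrays lay below all wild-type arrays for 4 of the 24, beside 7.4% of all genes, and above them for 0. Other mRNAs with a TOP motif were read in 5 of 7 genes, with a median of -0.05. All cKO arrays lay below all wild-type arrays for 3 of the 5, beside 7.4% of all genes, and above them for 0. The 3 were *Tpt1* at -0.05, *Pabpc1* at -0.18 and *Npm1*. Among them *Npm1*, a nucleolar chaperone, was 10.39, 10.44 and 10.37 in cKO and 10.51, 10.67 and 10.62 in wild-type DRG (log2 fold change -0.20, SE 0.07, adjusted p = 0.651). By the order of the identifiers examined below, this *Npm1* probe set lay among genes of the X chromosome and not of chromosome 11, where *Npm1* lies.

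Ribosome biogenesis genes, 28 of 30 measured, were split with 14 above and 14 below zero (median -0.01). All cKO arrays lay below all wild-type arrays for 4 of the 28 and above them for 1, beside 7.4% and 6.3% of all genes. *Gar1*, which encodes a protein of the particles that pseudouridylate ribosomal RNA, was 8.20, 7.81 and 8.03 in cKO and 8.31, 8.36 and 8.31 in wild-type DRG (log2 fold change -0.31, SE 0.11, adjusted p = 0.646). Regulators of the pathway, 16 of 18 measured, had a median of 0.03, with *Rps6kb2*, an S6 kinase, at -0.17. No gene of these lists passed at an adjusted p of 0.05.

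**Figure D4:**
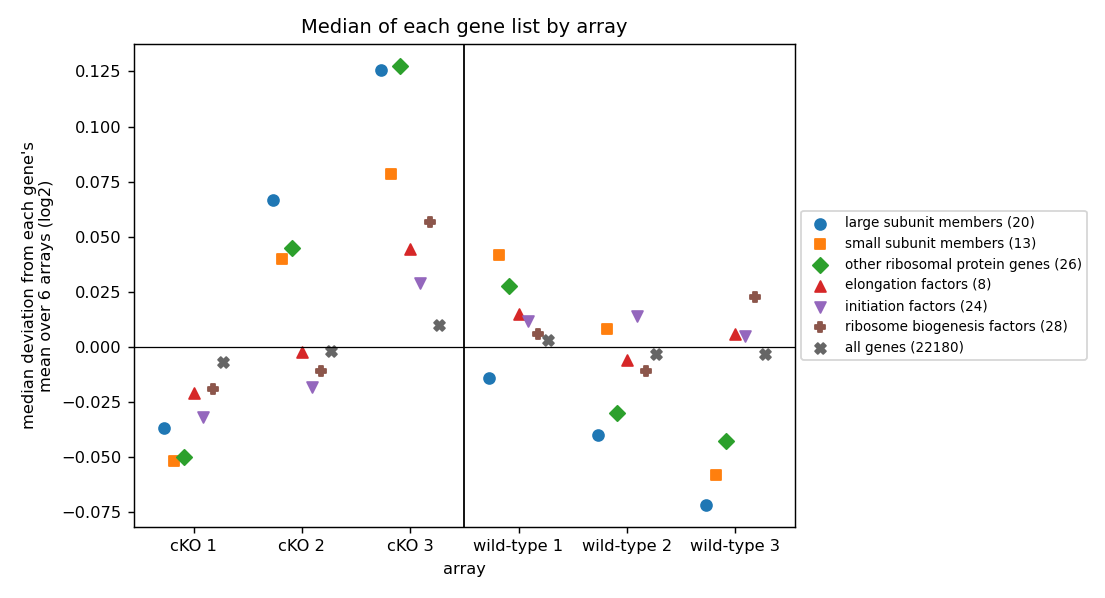
Deviation (log2) from each gene's own mean on each array, as the median over each list, for large- and small-subunit genes, the other ribosomal protein genes, elongation and initiation factors, ribosome biogenesis factors and all genes, cKO arrays left of wild-type arrays. The large subunit stands at 0.13 on cKO array 3 and -0.07 on wild-type array 3.

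Whether a probe set reads the gene or a processed copy was examined through the order of the identifiers, which follows the genome. Of 22764 single-symbol probe sets with clear neighbors, 22644 (99.47%) lay among genes of their own chromosome. Of the 33 probe sets used here, 21 did so, 8 lay among genes of another chromosome and 4 had no clear neighbors. The 8 were those of *Rpl13*, *Rpl15*, *Rpl19*, *Rpl27*, *Rpl3*, *Rplp0*, *Rps19* and *Rps6*. The median fold change was 0.06 for the 21 and 0.07 for the 8. Of the 26 further ribosomal protein genes, 11 were likewise read by a probe set among genes of another chromosome, with a median of 0.11, and 15 by one among genes of their own, with a median of 0.03. Cross-hybridization between a gene and its copies cannot be told apart in either set.

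The 33 genes had 52 single-symbol probe sets in all. For 14 genes several were present, and in 6 of these genes the probe sets differed in sign. *Rplp0* was the clearest case. The brighter probe set used here lay among genes of chromosome 8 and gave 0.35. The one among genes of chromosome 5, where *Rplp0* lies, was 6.94, 6.83 and 7.01 in cKO and 7.19, 6.96 and 7.05 in wild-type DRG, with a fold change of -0.14. For *Rpl27* the probe set on its own chromosome gave 0.25, in the direction of the 0.12 above, and for *Rps24* it gave 0.13 against -0.09. For *Rpl3* the brighter probe set on its own chromosome was 8.05, 8.06 and 7.90 in cKO and 8.11, 8.30 and 8.15 in wild-type DRG. Its groups did not overlap, with a fold change of -0.18 against the -0.07 above. The dimmer one on that chromosome gave -0.05, with overlapping groups.

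**Figure D5:**
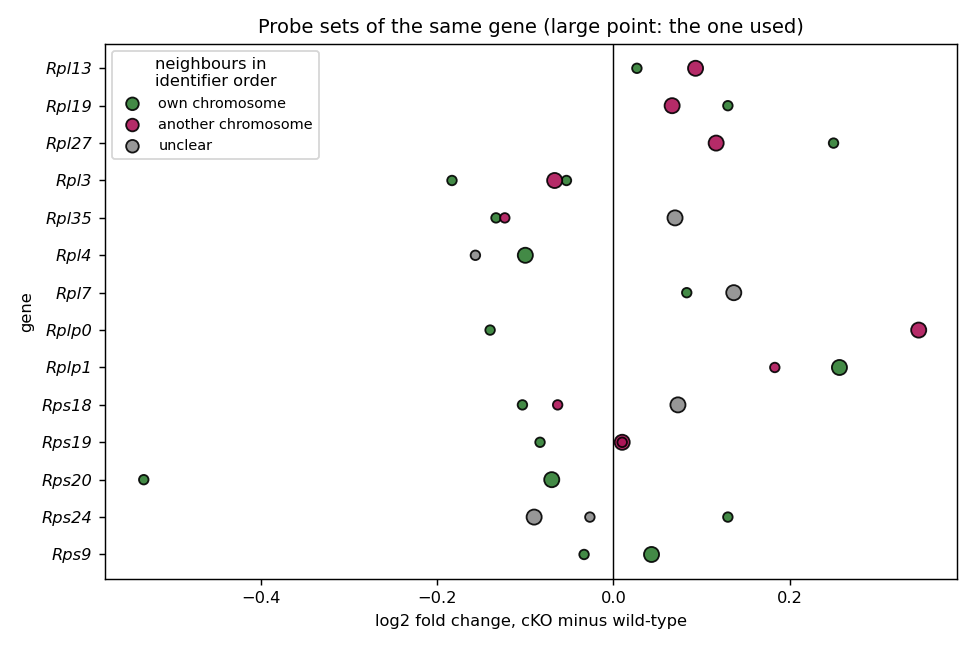
Log2 fold change, cKO minus wild-type, of every single-symbol probe set of the ribosomal protein genes that have several, with the one used drawn larger and the neighborhood of each probe set marked by color. In Rplp0 the probe set used gave 0.35 and the one among genes of its own chromosome -0.14.

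The genes were also split by the pyrimidine run at the annotated start. The 11 measured genes with a run of at least 8 bases, among them *Rpl35*, *Rpl15*, *Rpl14*, *Rps6* and *Rps27* printed above, had a median fold change of 0.07 with 8 above zero. The 14 measured genes with a window and a shorter run had a median of 0.04 with 9 above zero. The difference was not tested.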

How the data were processed

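Per the labels and the methods, the authors hybridized DRG RNA to Affymetrix whole-transcript mouse arrays and normalized the 6 arrays together by RMA, and the deposited table holds log2 values per probe set. Versions are not given in the sources used here. Probe sets with 1 gene symbol in the platform annotation (23521 of 41345) were used, 1820 with several were not, and the brightest per gene was kept (22180 genes). All probe sets were fitted with limma (lmFit and eBayes, version 3.58.1, R 4.3.3), HDAC4 Nav1.8 cKO minus wild-type, without a block, and p-values were adjusted by the Benjamini-Hochberg method over all of them, after tests on simulated data. RMA compresses differences of dim probe sets. Single genes were also tested by an exact two-sided permutation test. Values of every array are given for genes under an unadjusted p of 0.05, for the 4 largest and 4 smallest fold changes and for the largest spreads within a group, and up to 3 genes with the smallest p are named from each further list. Other genes given with all values were picked after these were seen. The genes and lists were chosen with earlier results of these data known. Alternatives were array weights, scaling, filters, probe set choice, sex as a covariate, the replicate number as a block and leaving out each array.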

Additional observations from a re-analysis of the deposited data

Results flagged for a closer look

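Probe sets with several symbols stood for no gene in the main comparison. Of those that include a listed ribosomal protein gene, 2 had all cKO arrays above all wild-type arrays, which is what singled them out. A further 2 had all cKO arrays below them. Of all genes in the main comparison, 6.3% lay above and 7.4% below in this way. These shares come from single-symbol probe sets, 1 per gene, and not from probe sets with several symbols. The counts were not tested against these shares. The probe set annotated with *Snord68*, *Rpl13* and a copy of *Rpl13* was 5.46, 6.32 and 5.35 in cKO and 5.19, 4.44 and 4.61 in wild-type DRG, a log2 difference of 0.96. The probe set annotated with *Rps2* and 2 further symbols was 7.74, 7.69 and 7.69 in cKO and 7.67, 7.55 and 7.43 in wild-type DRG, a log2 difference of 0.16. The 2 lower ones were annotated with *Rpl30* and copies (10.01, 9.94 and 9.90 in cKO and 10.10, 10.11 and 10.07 in wild-type DRG, a difference of -0.14) and with *Rps6* and a copy (7.02, 7.03 and 6.86 in cKO and 7.13, 7.17 and 7.26 in wild-type DRG, a difference of -0.22). Which of the named transcripts each probe set reads cannot be told apart. With several-symbol probe sets taken in, 35 genes were measured, *Rps2* among them, and none passed an adjusted p of 0.05.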

How the results depend on the processing

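No listed ribosomal protein gene passed an adjusted p of 0.05 under any alternative run. With sex as a covariate the median fold change was -0.01 over all 33 genes 0.0117 in the large and -0.04 in the small subunit, and 0 genes were higher at an unadjusted p of 0.05. With array weights (*Rps15*), with a trended and robust prior (*Rpl4*), or with the mean of a gene's probe sets (*Rps20*), 1 gene was lower at that level. Of all genes, 3.94%, 3.6% and 4.12% were lower under these settings. With cyclic loess 5 genes (15.2%, beside 8.76% of all genes) had all cKO arrays higher. *Rpl6* turned to 0.12 and *Rplp0* to -0.15 with the sex covariate, *Rplp0* turned to -0.14 and *Rps24* to 0.13 with own-chromosome probe sets (an alternative chosen after seeing the data), and *Rps24* to 0.0044 with the mean of probe sets. Leaving out 1 array, 1 to 4 genes were higher at an unadjusted p of 0.05 (1.67% to 4.95% of all genes). At that level 0 to 1 were lower (1.67% to 4.33% of all genes). Non-overlapping genes ran from 4 to 14 higher (10.2% to 16.7% of all genes) and from 2 to 4 lower. The share of all genes lower in this way was not computed for these fits, so the lower counts have no comparison. The 4 genes higher at that level and the 14 were reached without cKO array 1. The median ran from 0.04 to 0.11. It ran from 0.04 to 0.14 in the large subunit and from -0.02, without wild-type array 3, to 0.06 in the small subunit. With the replicate number as a block the median was 0.07 and 2 genes were higher at an unadjusted p of 0.05, beside 1.6% of all genes. Deviations of same-numbered arrays correlated at -0.04, -0.08 and -0.08, which gave no sign that the numbers pair the arrays. Such correlations cannot exclude pairing, and the labels do not say. Dim probe sets, such as those of *Rps15* and *Rps20*, limit what can be read.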

Other observations

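Small nucleolar RNAs are processed from introns of ribosomal protein genes, and 19 of those nested in such genes by RefSeq were measured. This set was chosen after seeing the data. Of the 19, 14 had a fold change above zero (median 0.08), beside 44 of all 81 measured small nucleolar RNA genes (median 0.02). *Snord83b*, within *Rpl3*, was 7.63, 7.63 and 7.36 in cKO and 7.42, 7.09 and 7.14 in wild-type DRG. Its groups overlapped, with a log2 difference of 0.32 (adjusted p = 0.652). *Snord43*, also within *Rpl3*, was at 0.02. *Rpl3* itself was at -0.07 by the probe set used and at -0.18 by the brighter one on its own chromosome. *Snord72*, within *Rpl37*, was 3.57, 3.72 and 3.63 in cKO and 3.89, 3.79 and 4.71 in wild-type DRG. All cKO arrays lay below all wild-type arrays, with a log2 difference of -0.49 (adjusted p = 0.692), whereas *Rpl37* was at 0.28. The *Snord72* probe set is dim, and much of its difference came from wild-type array 3. Of the 19, 2 had all cKO arrays below all wild-type arrays and 0 above, beside 3 and 1 of all 81. The other lower one was *Snora69*, within *Rpl39*, with a log2 difference of -0.32 (adjusted p = 0.651).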
